A study of Arabidopsis thaliana with 8 samples.

Results

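The xyloglucan transglucosylase genes, named XTH, were described in stems of the Arabidopsis thaliana mutant cov and of its wild type comparison Ler-0. Members were taken as probe sets of the ATH1 array that the probe annotation gives to exactly 1 gene with a symbol made of XTH and a number. This gave 9 genes, each with 1 probe set, of 13350 genes with a probe set of their own. The 9 were XTH16 (AT3G23730), XTH18 (AT4G30280), XTH19 (AT4G30290), XTH20 (AT5G48070), XTH21 (AT2G18800), XTH26 (AT4G28850), XTH29 (AT4G18990), XTH32 (AT2G36870) and XTH33 (AT1G10550). The RefSeq annotation of TAIR10.1 lists 33 genes under an XTH number, and apart from these 9 and EXGT-A3 they are not analysed here.

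XTH enzymes act in the growing wall on xyloglucan, the main polymer that tethers cellulose in primary walls of dicot plants. They cut a xyloglucan chain and join the new end to another chain, and some members transfer it to water instead and so shorten the polymer. Individual genes of the family are known for expression in particular organs, and the group that holds XTH18, XTH19 and XTH20 is best known from roots.

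The 4 groups were cov stem tip, cov stem base, Ler-0 stem tip and Ler-0 stem base, with 2 arrays each. The labels place all plants at growth stage 6.10, on compost with the insecticide Intercept, at 22 °C, 65% humidity and 24 hours of light, and give the stock NW20 for Ler-0. They do not give the allele, the background or any backcross of the mutant, or whether plants were pooled, so the mutation and the background cannot be told apart. COV1 and its relatives had 0 named probe sets, so the level of the mutated gene could not serve as a check of the labels.

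Values are MAS5 signal, a brightness per probe set on a linear scale, and levels of different probe sets are not comparable with each other. The median signal of an array lay between 41.4 and 50.1, with the lowest value and the widest spread of log2 signal on wild type base array 1. The labelled stem parts were checked on the few markers with a named probe set. The summed signal of 4 secondary wall genes, GUT1, GUT2, IRX15 and IRX15-L, was 348.7 to 387.2 in wild type tips and 379.8 to 410.6 in cov tips. It was 1416 to 1961 in cov bases and 2524 to 3101 in wild type bases. Within the sum GUT1 did not separate the stem parts. It had 217 and 159.4 in wild type tips against 198.5 and 208.6 in wild type bases, and 185.7 and 151.4 against 181.2 and 201.5 in cov. The summed signal of the anther genes AMS and SPL was 54.2 to 89.2 in wild type tips and 47.6 to 67.6 in cov tips, against 6.3 to 15 in all bases. Detection calls were not used, and SPL was below the filter on dim signals. CLV3, a stem cell gene of the shoot meristem, stayed between 2.2 and 12.2 on all arrays, and none of these markers was listed at 0.

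XTH16 was the member with the steepest course along the stem. In wild type its signal was 312.4 and 223 at the tip and 9.7 and 17.7 at the base. In cov it was 596.8 and 559.7 at the tip and 27.5 and 33.7 at the base. The 4 groups did not overlap, in the order cov tip, wild type tip, cov base and wild type base.

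XTH18, whose loss of function is known to shorten root epidermal cells, had a signal of 53.5 and 56 in cov tips. It had 5.7 and 2 in wild type tips, 14.7 and 11.4 in wild type bases and 11.2 and 19.1 in cov bases. The cov tips stood above every other array, the wild type tips below every other array, and the base arrays of the genotypes overlapped. In the order of the levels, the neighbours cov base and wild type base therefore did not differ beyond their spread.

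XTH19, the neighbour of XTH18 in the RefSeq gene order, had a signal of 50.1 and 31 in cov tips. It had 3.9 and 11 in wild type tips, 5.8 and 2.7 in cov bases and 1.5 and 2.6 in wild type bases. Its cov tips, too, were the brightest arrays, and it was dim on the other 6. XTH24 lies on the other side of XTH18 and is not analysed here. None of the 9 probe sets carries the suffix that marks sequence shared between genes, but probe sequences were not examined, and signal shared between XTH18 and XTH19 was not tested.

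XTH32 belongs to the branch of the family predicted to hold hydrolases. Its signal was bright and similar in all groups, at 507.1 and 600.9 in wild type tips, 684.1 and 685.4 in cov tips, 623.8 and 569.2 in wild type bases and 545 and 733.5 in cov bases. The ratio of its highest to its lowest array was 1.45, against 61.5 for XTH16. The cov tips lay above the wild type tips by a small margin, and at the base the genotypes overlapped.

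The remaining members were dim. XTH29, of the same wider branch as XTH32, had 10 and 13.7 in wild type tips, 12.7 and 20.4 in cov tips, 28.7 and 26 in wild type bases and 27.2 and 21.2 in cov bases, and so was brighter at the base on every array. XTH20, which together with XTH19 is known to act in cell proliferation of the wounded stem pith, ranged from 10 to 44.2, and both of these extremes came from wild type bases. XTH33, which is predicted to be anchored in the plasma membrane, ranged from 3.8 to 46.4, and its arrays of one group differed as much as the groups did. XTH21 and XTH26, known for roles in roots and root hairs, stayed between 0.6 and 2.3 on all 8 arrays.

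**Figure D1:**
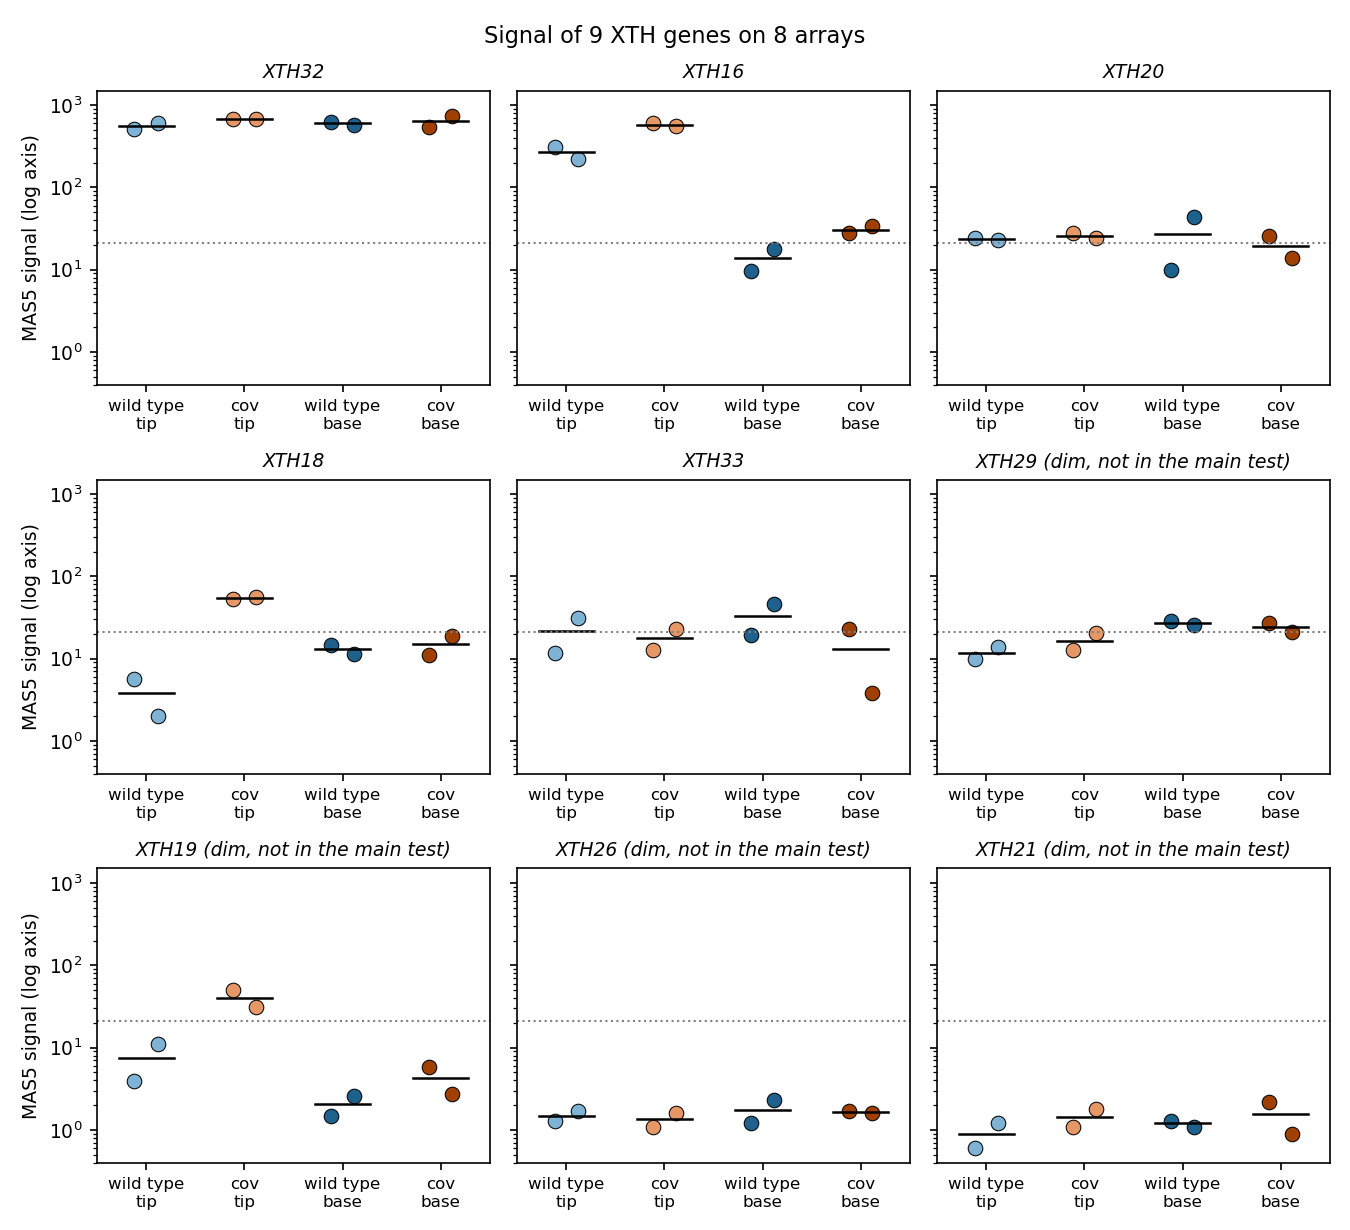
MAS5 signal (log axis) of each of the 9 XTH genes on the 8 arrays, by group. Points are arrays, bars are means of 2 arrays, and the dotted line marks the mean signal of 21.36 below which a probe set was left out of the main test. XTH16 falls from tip to base in both genotypes, and XTH18 and XTH19 are brightest in the cov tips.

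Differences were tested with limma on log2 of signal plus 11.85, across all 15923 probe sets whose mean signal over the 8 arrays reached 21.36, and adjusted by the Benjamini-Hochberg method at a threshold of 0.05. Of the 9 members, 5 passed that filter, namely XTH16, XTH18, XTH20, XTH32 and XTH33. XTH33, at a mean of 21.38, and XTH18, at 21.7, were just inside it, and XTH29, at 19.99, was just outside. XTH18 reached it only through its cov tips. XTH19 (13.57), XTH26 (1.56) and XTH21 (1.27) were further below. These 4 dim members are given from the same fit without the filter, on 22746 probe sets.

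At the stem tip, the question was which transcripts differ between cov and wild type in young stem. XTH18 and XTH16 were higher in cov. XTH18 rose by 2.09 ± 0.28 on the log2 scale (SE, n = 2 arrays per group, limma adjusted p = 0.00305), and its mean signal was 54.8 ± 1.77 (SD) in cov against 3.85 ± 2.62 in wild type. The size depends on the pseudocount, since the wild type signal is so low, with a log2 difference of 3.64 at a pseudocount of 1 and 0.996 at the table median, both of them called. XTH16 rose by 1.096 ± 0.213 (limma adjusted p = 0.0271), at 578 ± 26.2 (SD) against 268 ± 63.2.

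Of all tested probe sets, 1.41% were higher in cov and 0.408% lower, or 1.82% in either direction. XTH18 entered the test through its cov tips, so nothing is read from the count of 2 among 5 tested members. XTH32 had a log2 difference of 0.30 ± 0.17 (adjusted p = 0.591 in limma), XTH20 0.10 ± 0.39 and XTH33 -0.13 ± 0.45, and none of these was called. The 95% limits of the fitted ratio of wild type to cov for XTH33 ran from 0.547 to 2.19. Without the filter, XTH19 was 2.72-fold higher in cov tips (1.81 to 4.07, limma adjusted p = 0.0479), among 0.668% of 22746 probe sets called higher and 0.892% called in either direction. That fit also returned XTH18 (adjusted p = 0.00836) and ended the call of XTH16 (0.0742 by limma). XTH29 had a log2 difference of 0.25, XTH21 of 0.06 and XTH26 of -0.02 in it.

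Over all 9 members the median log2 difference at the tip was 0.25, against 0.01 over all probe sets. The difference was above 0 in 7 of 9, beside 52.4% of all probe sets. XTH20, XTH21 and XTH29 are among these 7, though their cov and wild type tips overlapped. XTH21 had only 1.1 and 1.8 in cov tips against 0.6 and 1.2, so such signs carry little. In 4 of 9 members, XTH16, XTH18, XTH19 and XTH32, both cov tips lay above both wild type tips, and in 0 of 9 below. Among all probe sets, 22% were separated upward in this way and 18.4% downward, 40.4% in all. The call of XTH16 was lost with a pseudocount of 1 (adjusted p = 0.102 in limma) and without a trend (0.0516), and when array 1 or array 2 of the cov tips, or array 2 of the wild type tips, was omitted (adjusted p = 0.221, 0.173 and 0.148 in limma). For XTH18 the log2 difference ran from 1.92 to 2.27 over the 8 omissions of an array. The filter stayed as set on all 8 arrays, and XTH18 passed it through its cov tips. The omissions therefore cannot show whether XTH18 would be tested without a cov tip array.

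Levels in bulk tissue cannot tell fewer cells of a type from less RNA per cell. Of the marker genes, the summed anther signal of cov tips (47.6 to 67.6) overlapped that of wild type tips (54.2 to 89.2), as did the secondary wall sum. Within that sum only GUT1 overlapped. GUT2 had 97.9 and 107.3 in cov tips against 79.2 and 94.4 in wild type tips. IRX15-L had 95.9 and 97.5 against 70.2 and 75, and IRX15 31.1 and 23.6 against 20.8 and 19.9. None of these genes was called, and 22% of all probe sets were separated upward. WSD1, a wax ester synthase of the epidermis, had 238.2 to 291 in cov tips and 312.8 to 387.3 in wild type tips. Their part in the XTH differences was not tested.

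At the stem base, 0 of the 5 tested members were called between cov and wild type by limma, beside 5.53% of all tested probe sets (3.42% higher and 2.11% lower), and 1 of the 5, XTH16, had an unadjusted p under 0.05. XTH16 had a log2 difference of 0.75 ± 0.21 (adjusted p = 0.0718 in limma), and both cov bases lay above both wild type bases, at 30.6 ± 4.38 (SD) against 13.7 ± 5.66. With a pseudocount of 1 its log2 difference was 1.15 and it was called (adjusted p = 0.0441 in limma). XTH18 had a log2 difference of 0.10 ± 0.28, with 95% limits of 0.7-fold to 1.65-fold, and XTH32 one of 0.08 ± 0.17, with limits of 0.819-fold to 1.37-fold. XTH20 had -0.18 ± 0.39.

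XTH33 had the lowest value at the base, -0.88 ± 0.45 (adjusted p = 0.335 in limma), with signals of 22.7 and 3.8 in cov and 19.4 and 46.4 in wild type, which overlap. Without the filter XTH19 had a log2 difference of 0.21, XTH29 of -0.13, XTH21 of 0.04 and XTH26 of -0.01, and 0 of 9 members were called, beside 2.88% of all probe sets (1.73% higher and 1.15% lower). The median over the 9 members was 0.04, against 0.02 over all probe sets. In 2 of 9 members, XTH16 and XTH19, the cov bases lay above the wild type bases without overlap, and in 0 of 9 below, beside 23% and 19.1% of all probe sets and 42.1% together. WSD1 had 42.3 to 46.2 in cov bases and 0.4 to 1.3 in wild type bases, and the secondary wall sum was lower in cov bases, as given above. Their part in the values of XTH16 and XTH19 was not tested.

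**Figure D2:**
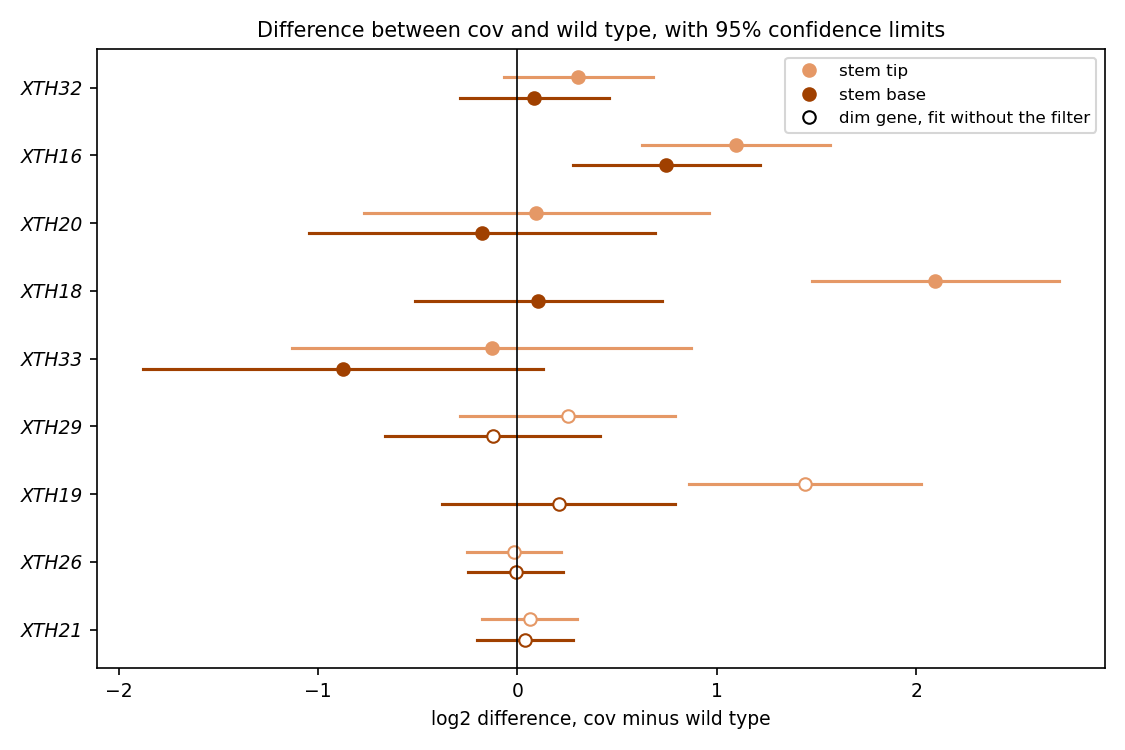
Log2 difference of cov minus wild type for each XTH gene at the stem tip and at the stem base, with 95% confidence limits from limma. Filled points come from the main test and open points, for 4 dim genes, from the fit without the filter. XTH18, XTH16 and XTH19 lie above 0 at the tip, and at the base the limits of XTH16 alone stay above 0.

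Along the wild type stem, XTH16 fell by 3.45 ± 0.21 on the log2 scale from tip to base, which is 10.9-fold (95% limits 7.89 to 15.1, limma adjusted p = 5.42e-07). Its wild type base signal is low, and the log2 difference was -4.23 with a pseudocount of 1 and -2.36 with the table median, both of them called. It was the 1 member called of 5 tested, beside 24.4% of all tested probe sets that were lower at the base and 22% that were higher, 46.4% in all. XTH18 was brighter at the base on both arrays, with a log2 difference of 0.67 ± 0.28 that was not called (adjusted p = 0.0728 in limma). It was called under median centring (0.0406 by limma), quantile normalization (0.0418), a pseudocount of 1 (0.0414) and a prior without a trend (0.0232). XTH29 was 1.66-fold higher at the base in the fit without the filter (1.14 to 2.41, limma adjusted p = 0.0446), where 15.3% of probe sets were higher, 17.5% lower and 32.7% either. XTH19 had -0.45 in that fit (adjusted p = 0.231 in limma), XTH33 0.42 ± 0.45, XTH32 0.11 ± 0.17 and XTH20 -0.02 ± 0.39. The wild type arrays of base and tip did not overlap in 2 members that were higher at the base, XTH18 and XTH29, and in 2 that were lower, XTH16 and XTH19, beside 30.6% and 31.6% of all probe sets and 62.2% together.

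Along the cov stem, XTH16 fell by 3.80 ± 0.21, or 13.9-fold (10.1 to 19.3, limma adjusted p = 8.39e-07), and XTH18 fell by 1.32 ± 0.28, or 2.49-fold (1.62 to 3.83, limma adjusted p = 0.00463). Of tested probe sets, 15.8% were lower at the base of cov, 15.4% higher and 31.3% either. XTH18 entered the test through its cov tips, so its call is also given without the filter, where it was kept (adjusted p = 0.00578 in limma). Without the filter XTH19 also fell, by 1.68 on the log2 scale (limma adjusted p = 0.00247), beside 10.8% of all probe sets lower, 9.75% higher and 20.6% in all. XTH29 had 0.35 (adjusted p = 0.364 in limma), XTH33 -0.33 ± 0.45, XTH20 -0.29 ± 0.39 and XTH32 -0.11 ± 0.17. Arrays did not overlap in 1 member higher at the base, XTH29, and in 3 lower, XTH16, XTH18 and XTH19, beside 29.7% and 30.8% of all probe sets and 60.6% together. WSD1 and the summed anther signal were also lower at the base than at the tip in both genotypes, and their part in these courses was not tested. Over the 8 omissions of an array the log2 difference ran from -3.91 to -3.69 for XTH16 and from -1.53 to -1.11 for XTH18. The filter was not redone for an omission, so these values do not check how XTH18 entered the test.

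**Figure D3:**
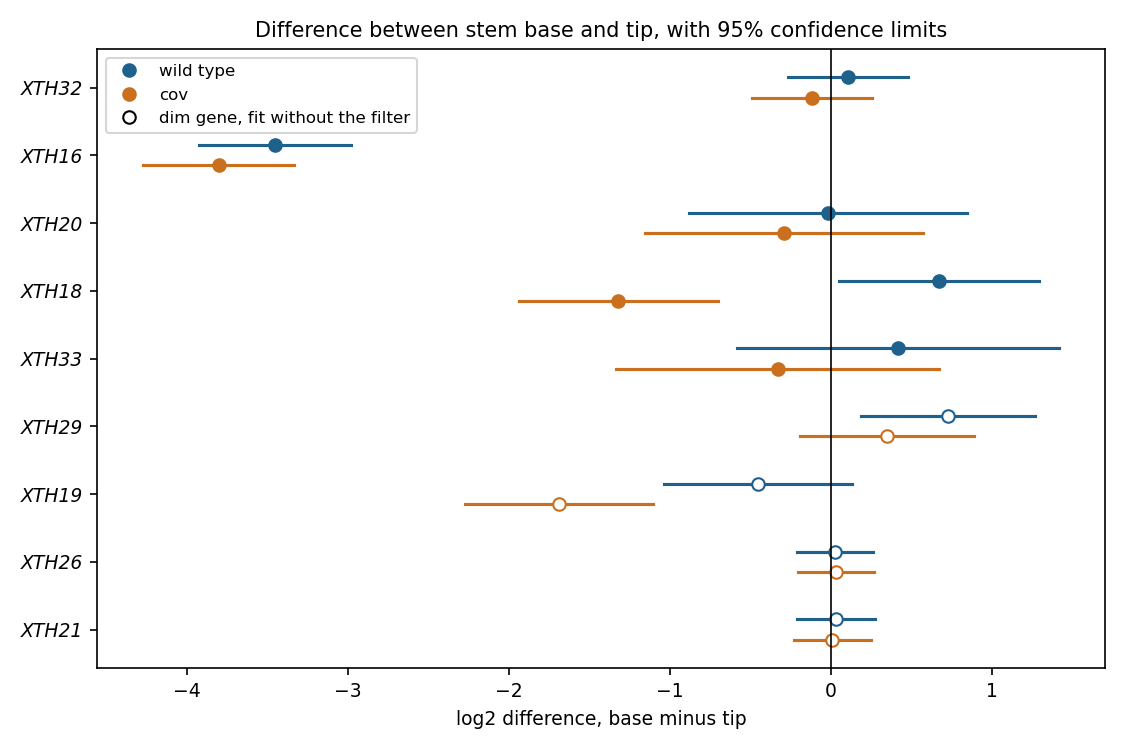
Log2 difference of stem base minus tip for each XTH gene in wild type and in cov, with 95% confidence limits from limma. Open points are dim genes from the fit without the filter. XTH16 lies far below 0 in both genotypes, and XTH18 lies above 0 in wild type and below 0 in cov.

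Whether the stem course of a member differs between the genotypes was tested as the base-minus-tip difference in cov minus that in wild type. XTH18 had -1.99 ± 0.40 on the log2 scale and was called among the filtered probe sets (limma adjusted p = 0.0321) but not without the filter (0.0511). It passed that filter through its cov tips alone. The filtered call stood beside 1.04% of tested probe sets called in that direction and 1.11% in the other, 2.15% in all. Both wild type bases were brighter than both wild type tips, and both cov bases were dimmer than both cov tips. The call was kept in 1 of 8 omissions of an array. Without wild type base array 1, which stands apart, the difference was -1.89 (adjusted p = 0.0917 in limma), and without the filter 0.321% of probe sets were called lower, 0.29% higher and 0.611% in all. With a pseudocount of 1 the adjusted p of limma was 0.0703, and over all the alternatives 0.0159 to 0.0703.

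For XTH16 the stem course did not differ by this test, at -0.35 ± 0.30 (adjusted p = 0.656 in limma, 95% limits -1.01 to 0.32). The ratio of mean signals of cov to wild type was 2.16 at its tip and 2.23 at its base. XTH33 had -0.75 ± 0.64, XTH20 -0.27 ± 0.55 and XTH32 -0.22 ± 0.24, and none of these was called. In the fit without the filter XTH19 had -1.24 (adjusted p = 0.196 in limma) and XTH29 -0.38. The median over the 9 members was -0.35, against 0.01 over all probe sets. Above 0 lay 1 of 9, XTH26 with 0.01, beside 50.9% of all probe sets. XTH21, among those below 0, had -0.02 at signals of 0.6 to 2.2, so its sign carries little. The contrasts share arrays, so these values are set side by side and are not independent of each other.

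EXGT-A3 (AT2G01850) carries the name XTH27 among its RefSeq synonyms and is not counted as a member. It is known from vessel elements of leaf veins. Its signal was 79.2 and 54.5 in wild type tips, 132.8 and 115 in cov tips, 328.7 and 221.6 in wild type bases and 195.3 and 137 in cov bases. The groups did not overlap, and both cov groups lay between the wild type groups. It rose 3.63-fold from tip to base in wild type (2.52 to 5.23, limma adjusted p = 9.25e-05), and its log2 difference of 0.37 in cov was not called (adjusted p = 0.273 in limma). The difference between these courses was -1.48 ± 0.34 and did not pass (adjusted p = 0.0516 in limma), nor did cov against wild type at the tip (0.176) or base (0.139).

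The genes whose pattern over the 8 arrays was most like that of a raised member were taken by the Pearson correlation of log2 signal, among 8773 tested probe sets with 1 gene. For XTH16 these were AT1G10780 (r = 0.997), AT5G24570 (r = 0.992) and AT3G28220 (r = 0.991). The mean signal of AT5G24570 was 199.5 in wild type tips, 275 in cov tips, 46.8 in wild type bases and 63.5 in cov bases. For XTH18 they were AT1G56060 (r = 0.952), the beta-glucosidase gene BGLU25 (r = 0.923) and AT5G13880 (r = 0.923). BGLU25 had a mean of 549 in cov tips against 90.05 to 104.9 in the other groups. It was picked for its likeness to XTH18, so the shared brightest group follows from that choice. The 8 arrays fall into 4 groups and are not independent points, so these correlations are given as a description.

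Other genes of xyloglucan synthesis and wall loosening were few among the named probe sets. Of 5 genes for xyloglucan synthesis, CSLC04, CSLC5, CSLC6 and CSLC12, which belong to the family of glucan backbone synthases, and GER2, which acts in sugar nucleotide conversion, 0 were called between the genotypes at the tip or the base by limma, beside 1.82% and 5.53% of all tested probe sets, so the count says nothing particular of these genes. An unadjusted p under 0.05 was found for 0 of 5 at the tip and 1 of 5 at the base. Of 16 entries for trimming and hydrolysis of xyloglucan, 0 had a named probe set.

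Expansin proteins loosen walls without cutting polymers. Of 18 expansin (EXPA and EXPB) and expansin-like (EXLA and EXLB) genes, 15 were tested. At the tip 0 of 15 were called by limma, beside 1.82% of all tested probe sets, with 3 of 15 at an unadjusted p under 0.05, and the median over all 18 was -0.02, against 0.01 over all probe sets. At the base 3 of 15 were higher in cov and 0 lower, beside 3.42% and 2.11% of all tested probe sets. EXLA1 had 126.9 and 124.8 in cov bases against 51.7 and 36.4 in wild type, a rise of 1.31 ± 0.22 on the log2 scale (limma adjusted p = 0.00561). EXLA2 had 24.7 and 36.8 against 4.4 and 2.8, and rose by 1.45 ± 0.22 (limma adjusted p = 0.0035), a value that ran from 0.61 to 2.78 with the pseudocount. EXPA15 had 425.3 and 671.1 against 141.9 and 245.7, and rose by 1.46 ± 0.28 (limma adjusted p = 0.0123), a call that ended when array 2 of the cov bases (0.0755) or array 1 of the wild type bases (0.111) was omitted.

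Of 8 other genes of primary wall loosening and growth, 2 were higher in cov at the tip, and at the base 2 were higher and 1 was lower. The shares of all tested probe sets were 1.41% higher and 0.408% lower at the tip, and 3.42% and 2.11% at the base. EXO, a brassinosteroid-regulated gene that promotes cell expansion, was higher in cov in both parts. At the tip it had 1006 and 709.4 against 313.1 and 350.3, a rise of 1.32 ± 0.20 (limma adjusted p = 0.00658), which was no longer called when array 1 of the cov tips (0.109) or array 1 of the wild type tips (0.0674) was omitted. At the base it had 65.6 and 47.8 against 5.3 and 5.7, a rise of 1.97 ± 0.20 (limma adjusted p = 0.000406), which ran from 0.97 to 3.13 with the pseudocount.

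The pectin methylesterase gene PME61 was higher in cov tips, at 130.8 and 160.5 against 68.2 and 64.6 (log2 difference 1.003 ± 0.149, limma adjusted p = 0.00587), a call that ended when array 2 of the cov tips was omitted (0.0931). THE1, a receptor kinase that senses the state of the wall, was higher at the base, at 73.6 and 86.9 against 36.4 and 30.1 (1.03 ± 0.22, limma adjusted p = 0.0192). That call ended when array 2 of the cov bases (0.0961) or array 1 (0.0686) or 2 (0.104) of the wild type bases was omitted, and by a narrow margin without the filter (0.0503) and in the fit of the base arrays alone (0.05). GH9B5, of the endoglucanase family, was lower at the base, at 292.4 and 248.1 against 469.5 and 435.8 (-0.72 ± 0.17, limma adjusted p = 0.0346). GH9B5 kept its call in 2 of 8 omissions of an array, with an adjusted p of up to 0.167 in limma. It also lost the call at a pseudocount of 1 (0.0526), without the filter (0.0542), without a trend (0.0616) and in the fit of the base arrays alone (0.0572). From tip to base in wild type, PME61 rose 18.7-fold and GH9B5 8.03-fold, while EXO fell 19.8-fold and THE1 3.01-fold. Of the 8 genes, 4 were called higher at the wild type base and 3 lower, beside 22% and 24.4% of all tested probe sets. At the base the summed signal of the secondary wall markers was also lower in cov (1416 to 1961 against 2524 to 3101). Its part in the differences between the genotypes was not tested.

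**Figure D4:**
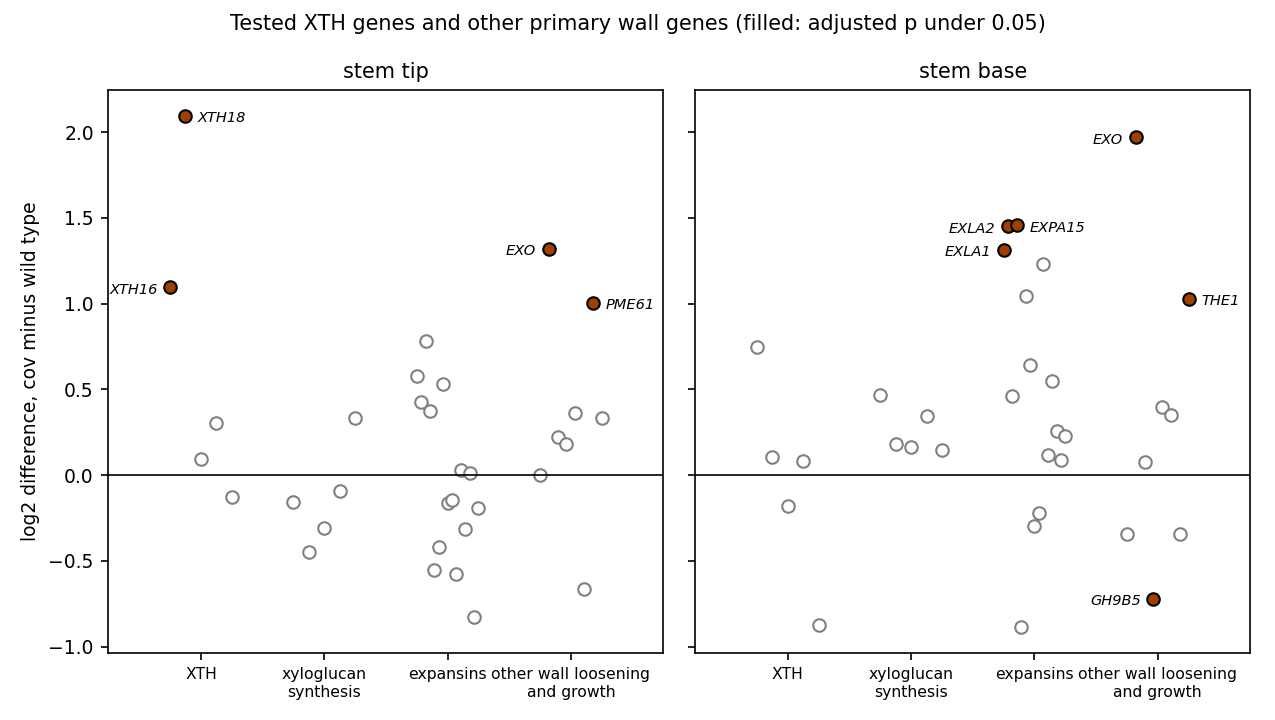
Log2 difference of cov minus wild type at the stem tip and base for the 5 tested XTH genes and for the tested genes of 3 other groups (5 for xyloglucan synthesis, 15 expansin and expansin-like genes, 8 others). Filled, named points passed the adjusted threshold. XTH16 and XTH18 are among the filled points at the tip, and the expansin-like genes EXLA1 and EXLA2 and the expansin gene EXPA15 at the base.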

How the data were processed

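The deposited values are MAS5 signal intensity, made by the authors per the submitters' processing notes, for 22810 probe sets on 8 arrays. The MAS5 version was not given in the sources used here, and detection calls were not used. The 2% trimmed mean was 100 on every array, so the intensity values were used as deposited. After 64 control probe sets were left out, log2(signal + 11.85) was fitted in limma 3.58.1 (R 4.3.3) with 4 group means and eBayes with a trend. The pseudocount is 0.25 of the table median of 47.4, and draws differences of dim genes toward 0. Folds are on that scale, and their limits are 95% confidence limits. Probe sets under the 30th percentile of mean signal were not tested. Symbols were brought up to date through RefSeq of TAIR10.1, used for names and gene order alone. FDH, here formate dehydrogenase, was taken out of the epidermis markers. The fit was tested on simulated data.

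P-values are two-sided and measure the spread between these samples, which may be technical, and their precision is limited by the number of arrays. The 9 members, the lists and the tests were chosen with earlier results of these data known. Every member was to be named, with 3 genes of like pattern for each called member and list genes where called between the genotypes. EXGT-A3, the 5 xyloglucan synthesis genes and the marker genes fall outside that rule and were chosen after their values were seen. Alternatives were another pseudocount, filter, scaling, prior, set of samples or a replicate block, and the omission of each array. They were run for probe sets inside the filter, and the dim members were fitted without the filter alone.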

Additional observations from a re-analysis of the deposited data

Results flagged for a closer look

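XTH18 had a course along the stem that differed between the genotypes in the test of the difference itself, in the filtered set of probe sets. The base-minus-tip difference in cov minus that in wild type was -1.99 on the log2 scale (limma adjusted p = 0.0321). In wild type alone the base-minus-tip difference was 0.67, which the main test did not call (adjusted p = 0.0728 in limma). It rests on low wild type tip signals of 5.7 and 2. In cov the difference was -1.32 and was called (limma adjusted p = 0.00463). XTH18 passed the filter through its cov tips alone. The call was lost without the filter (adjusted p = 0.0511 in limma), with a pseudocount of 1 (0.0703) and in 7 of 8 omissions of an array.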

How the results depend on the processing

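Of 5 tested XTH members, 2 were called at the tip, 0 at the base, and 1 and 2 along the wild type and cov stems. For the difference between the stem courses 1 was called. The shares of all tested probe sets were, in that order, 1.82%, 5.53%, 46.4%, 31.3% and 2.15%. XTH18 is in the counts at the tip, along the cov stem and for the difference, and passed the filter through its cov tips alone. A pseudocount of 1 gave 1 at the tip, 1 at the base, 2 along the wild type stem and 0 for the difference between courses. Without the filter, with all 9 members in the test, 2 were called at the tip and 0 at the base. In that fit 2 were called along the wild type stem, 3 along the cov stem and 0 for the difference between courses. The shares of all probe sets were, in that order, 0.892%, 2.88%, 32.7%, 20.6% and 0.611%. At the tip XTH19 came in and XTH16 was lost. With the filter at the 50th percentile, which leaves 2 of the members in the test, 1 was called at the tip, 1 along the cov stem and 0 for the difference. Median centring and quantile normalization each gave 2 along the wild type stem, and a prior without a trend gave 1 at the tip and 2 along the wild type stem. Omission of 1 array gave 1 to 2 at the tip and 0 to 1 for the difference between courses. The cause was not tested. Of the member values under an alternative or an omission, 402 kept direction and side of the threshold or stayed uncalled, 15 lost a call and 8 gained one, and 0 called values reversed.

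Median centring moved the median log2 difference of all tested probe sets along the wild type stem from -0.01 to 0.11, and the calls at the base from 545 higher and 336 lower to 396 and 388. Over all probe sets the calls at the tip fell from 290 to 116, 132, 181 and 176 without each tip array, those at the base from 881 to 440 without wild type base array 1 and 490 in the fit of the base arrays alone. Calls along the cov stem fell from 4978 to 2870 and 3263 without either cov tip array. Those for the difference between courses fell from 342 to 139 without the filter, 227 without a trend, and 111 to 212 in 7 omissions.

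Same-numbered arrays share only a number, and their deviations correlated at -0.04 to 0.16 between groups. With the replicate block the member counts were 2, 0, 1, 2 and 1, and the calls over all probe sets 299 at the tip and 326 for the difference between courses. The block added calls for EXGT-A3 at the tip (0.0394 by limma), at the base (0.0395) and for its course (0.0116). The rule for members keeps up to 10 genes, so the measure used to rank them has no bearing on these 9. Members with a signal of a few units have little precision. The dim members outside the filter were fitted without it at 1 setting alone. Their calls there, for XTH19 and XTH29, depend on the pseudocount, and no other pseudocount, scaling or omission of an array was tried for them.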
